A study of Mus musculus with 12 samples.

Results

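The constant genes of the immunoglobulin heavy and light chains, together with the plasma cell genes Jchain and Mzb1, were followed in lung tissue of mice given bleomycin, with and without an herbal preparation. The 10 genes were the rows of the expression table with the names Ighm, Ighd, Igha, Ighg1, Ighg2b, Ighg2c, Ighg3, Igkc, Jchain and Mzb1, out of 56980 genes in the table. All 10 were found, and all 10 were among the 17827 genes with enough counts to be tested.

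B cells make antibodies, which join a heavy chain to a light chain. The constant gene of the heavy chain sets the class: Ighm and Ighd give IgM and IgD, the classes of naive B cells, and class switching moves the same variable region in front of Igha or an IgG gene. Plasma cells, the secreting descendants of B cells, hold far more constant region RNA than resting B cells, and they also express Jchain, which links IgA and IgM into polymers, and Mzb1, an endoplasmic reticulum protein that helps antibody assembly and secretion. In the lung, IgA made by plasma cells near the airways is carried to the surface by the receptor Pigr.

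Polyadenylated RNA of lung was sequenced in 12 libraries from male C57BL/6 mice aged 6 to 8 weeks, 4 libraries in each of 3 groups. The labels give day 28 as the day of euthanasia in all 3 groups. HBG mice received bleomycin, a drug that injures the lung and is used to produce fibrosis, instilled once into the trachea at 5 mg/kg, and were dosed by mouth with 7 g/kg of Huashibaidu granules, a product of Chinese herbal medicine. Model mice received the bleomycin dose and distilled water, and Control mice received distilled water with no bleomycin. The labels give 2 schedules for the granules, one that begins a week before bleomycin and runs to day 28, and one that begins on day 7 and lasts 14 days. Whether the libraries of a group are separate animals is not said, so the spread behind each p-value is that between libraries and may be technical.

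Library totals were 17979899 to 20752048 estimated counts in HBG, 19230848 to 22622447 in Model and 18864801 to 27150846 in Control. Lung markers were present in every library: the 6 alveolar genes summed to at least 14758 CPM (counts relative to the library total, scaled by edgeR's TMM factors) in each. Of the 12 libraries, 3 stood apart, 1 in each group. HBG 3, Model 2 and Control 4 had 73.4, 174 and 55.3 CPM of Cdkn1a, a cell cycle inhibitor chosen after its values were seen, against 476 to 750 CPM in the other 9. The same 3 libraries had the highest sums over 20 B cell identity genes, 826, 604 and 411 CPM, against 99.2 to 236 CPM in the other 9. Some of the results below are therefore also given without them. In whole lung, fewer cells of a type and less RNA per cell cannot be told apart.

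In GENCODE M21 on GRCm38 the heavy chain constant genes run on the minus strand from Ighm (chr12:113418558-113422730) through Ighd (chr12:113406604-113416324) and the IgG genes to Igha (chr12:113254830-113260236). Igkc lies at chr6:70726435-70726966 and Jchain at chr5:88519809-88527891. The identifiers of the 10 genes in the table were ENSMUSG00000076617 (Ighm), ENSMUSG00000104213 (Ighd), ENSMUSG00000095079 (Igha), ENSMUSG00000076614 (Ighg1), ENSMUSG00000076613 (Ighg2b), ENSMUSG00000076612 (Ighg2c), ENSMUSG00000076615 (Ighg3), ENSMUSG00000076609 (Igkc), ENSMUSG00000067149 (Jchain) and ENSMUSG00000024353 (Mzb1).

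The 4 IgG subclass genes lie side by side on chromosome 12 with the other heavy chain constant genes and resemble each other, which bears on how reads were assigned to them. They differ most in the hinge, the flexible stretch between the arms and the stem of the antibody, whose cysteines bond the heavy chains to each other. The hinge exons (exon 2 of the secreted transcripts, GENCODE M21 on GRCm38, minus strand, printed 5′ to 3′) are shown to let the subclasses be told apart, with in-frame cysteine codons in capitals. Ighg1 is at chr12:113329844-113329882, Ighg2b at chr12:113307261-113307326, Ighg2c at chr12:113288263-113288325 and Ighg3 at chr12:113360529-113360576.
Ighg1: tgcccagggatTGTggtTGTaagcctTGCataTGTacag
Ighg2b: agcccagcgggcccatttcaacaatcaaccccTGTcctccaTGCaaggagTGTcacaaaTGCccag
Ighg2c: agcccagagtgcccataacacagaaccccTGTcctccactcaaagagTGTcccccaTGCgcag
Ighg3: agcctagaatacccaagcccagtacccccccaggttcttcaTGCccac
The exons are 39, 66, 63 and 48 bases long and hold 4, 4, 3 and 1 cysteine codons in that order of genes.

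Ighg2b and Ighg2c are the closest pair. Their secreted transcripts share an identical stretch of 78 bases in exon 3 (Ighg2b chr12:113306869-113306946, Ighg2c chr12:113287869-113287946), shown as the longest stretch in which these transcripts cannot be told apart. Reads were 150 bases long as sequenced, so an untrimmed read reaches beyond it.
Stretch shared by Ighg2b and Ighg2c: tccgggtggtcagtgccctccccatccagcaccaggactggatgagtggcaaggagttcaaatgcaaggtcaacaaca
Of the 30-base windows of the Ighg2b transcript, 12.1% occur in the Ighg2c transcript, and the other 5 pairs of subclasses share stretches of at most 41 bases. In 3 libraries the deposited values of the pair were not whole numbers while their sum was: 2873.32 and 5738.68 counts in HBG 1, 600.41 and 769.59 in HBG 3, and 214.06 and 1792.94 in Model 3, for Ighg2b and Ighg2c. The division of reads between these 2 genes is therefore an estimate in those libraries. The sources used here do not give the build behind the counts, so the positions describe the reference and not the authors' annotation.

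IgG transcripts were scarce in Control lungs and higher in every bleomycin library. The 4 subclass genes summed to 636, 39.4, 70.6 and 15.95 CPM in HBG 1 to 4 and to 129.5, 44.5, 101 and 51.7 CPM in Model 1 to 4, against 9.91, 5.35, 10.1 and 13.75 CPM in Control 1 to 4. All 4 HBG and all 4 Model libraries lay above all 4 Control libraries, while HBG and Model overlapped.

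Ighg2c, the IgG2a counterpart of C57BL/6 mice and a subclass induced by interferon gamma, had 267, 10.8, 36.3 and 7.53 CPM in HBG and 90.6, 19.97, 81.0 and 43.4 CPM in Model, against 4.145, 3.65, 4.77 and 6.71 CPM in Control. Every bleomycin library exceeded the highest Control library, and HBG spanned the whole range of Model. In Model against Control its log2 fold change was 3.61 ± 1.03 (SE, edgeR adjusted p = 0.207). In HBG against Control it was 4.06 ± 1.05 (edgeR adjusted p = 0.242), and without HBG 1 it was 1.92.

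Ighg2b had 134, 13.01, 28.3 and 6.87 CPM in HBG and 30.5, 18.5, 9.67 and 5.22 CPM in Model, against 4.79, 1.25, 3.88 and 4.73 CPM in Control. It is the second gene whose Model and HBG libraries all lay above the Control libraries. The log2 fold change was 2.12 ± 0.88 in Model against Control (edgeR adjusted p = 0.376) and 3.63 ± 0.92 in HBG against Control (edgeR adjusted p = 0.23). Without HBG 1 the second value was 2.13. The counts of Ighg2b and Ighg2c together, which do not depend on how reads were divided between them, were 8612, 440, 1370 and 260 in HBG 1 to 4 and 2274, 763, 2007 and 960 in Model 1 to 4, against 166, 98, 223 and 232 in Control 1 to 4. Every bleomycin library was above every Control library in this sum too.

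Ighg1, the subclass tied to type 2 responses and interleukin 4, had 218.5, 13.99, 3.63 and 0.942 CPM in HBG and 7.46, 1.56, 9.63 and 0.912 CPM in Model, against 0.431, 0.300, 1.165 and 1.33 CPM in Control. HBG 1 held more than all other libraries together, and HBG 4 and Model 4 lay within the Control range. In HBG against Control the log2 fold change was 6.16 ± 1.61 (edgeR adjusted p = 0.26), and 2.91 without HBG 1. Against Model it was 3.60 ± 1.37 (edgeR adjusted p = 1.0), and 0.34 without HBG 1.

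Ighg3, the subclass of responses to carbohydrate antigens in mice, was the lowest of the 10 genes per length. It had 16.3, 1.67, 2.31 and 0.609 CPM in HBG and 0.906, 4.49, 0.949 and 2.08 CPM in Model, against 0.538, 0.150, 0.311 and 0.986 CPM in Control. The groups overlapped, with HBG 1 highest. Its log2 fold change was 2.08 ± 0.99 in Model against Control (edgeR adjusted p = 0.449), and 1.40 without Model 2. In HBG against Control it was 3.40 ± 1.01 (edgeR adjusted p = 0.376), and 1.63 without HBG 1.

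Igha, the heavy chain of IgA, had 1004, 167, 319 and 118 CPM in HBG and 568, 177, 180 and 64.0 CPM in Model, against 90.3, 51.3, 80.6 and 106 CPM in Control. All 4 HBG libraries lay above Control, whereas Model 4 lay within the Control range. Its log2 fold change was 2.29 ± 0.73 in HBG against Control (edgeR adjusted p = 0.431) and 1.59 ± 0.71 in Model against Control (edgeR adjusted p = 0.418). Without HBG 1 the first value was 1.29, and without Model 1 the second was 0.77.

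Jchain, the joining chain of polymeric IgA and IgM, followed Igha library by library. It had 356.5, 58.2, 96.3 and 38.9 CPM in HBG and 200, 61.0, 76.5 and 21.4 CPM in Model, against 25.2, 20.9, 24.7 and 32.6 CPM in Control. All 4 HBG libraries again lay above Control, and Model 4 again did not. The log2 fold change was 2.41 ± 0.74 in HBG against Control (edgeR adjusted p = 0.396) and 1.79 ± 0.72 in Model against Control (edgeR adjusted p = 0.372). Without HBG 1 the first value was 1.32, and without Model 1 the second was 1.03.

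The 12 libraries had the same order by Jchain as by Igha (Spearman's rho = 1.0, Pearson's r = 0.991 of log2 CPM). Without HBG 1 and Model 1, the 2 libraries farthest from the median, r was 0.972. CPM of Jchain per CPM of Igha was 0.334 ± 0.024 in HBG, 0.364 ± 0.041 in Model and 0.326 ± 0.057 in Control (SD, n = 4 each), although Igha itself ranged from 51.3 to 1004 CPM. Both genes come from the same libraries and scaling, so this is a description of these 12 libraries.

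**Figure D1:**
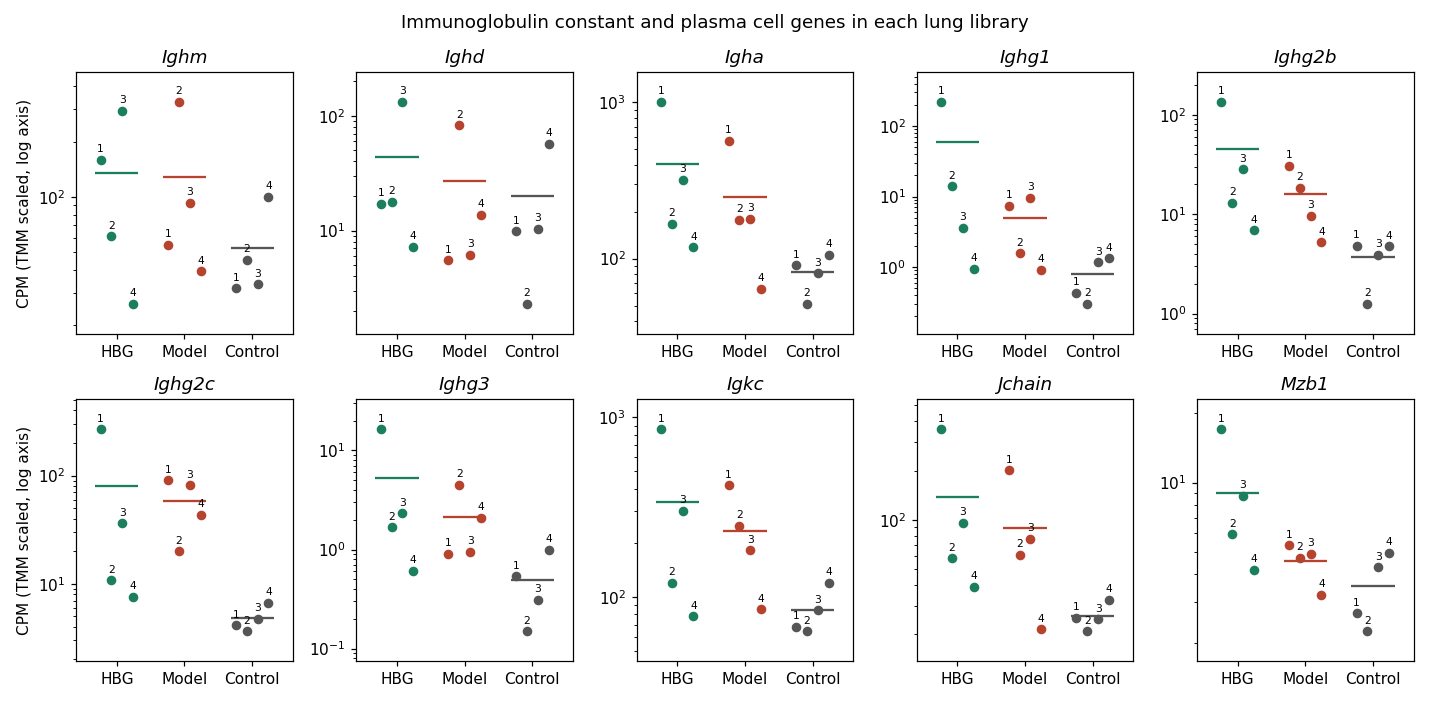
Levels of the 10 genes in CPM (log axis) in HBG, Model and Control lungs, with 1 numbered point per library and a line at the mean of the 4 libraries of a group. HBG 1 was the highest library for 8 of the 10 genes, and HBG 3 or Model 2 was the highest for Ighd and Ighm.

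The genes of unswitched B cells had another order of libraries. Ighd had 17.1, 17.9, 131 and 7.20 CPM in HBG and 5.49, 82.7, 6.15 and 13.7 CPM in Model, against 9.85, 2.30, 10.3 and 56.7 CPM in Control. The highest library of each group was one of the 3 that stood apart, HBG 3, Model 2 and Control 4, and the groups overlapped. Cd79a, a signalling chain of the B cell receptor, ranked the libraries almost as Ighd did (r = 0.993, rho = 0.979, and r = 0.986 without HBG 3 and Model 2). Jchain and Ighd, by contrast, had r = 0.178 and rho = 0.252, with r = 0.552 when HBG 1 and Model 1 were left out. The log2 fold change of Ighd was 0.45 ± 1.15 in Model against Control (edgeR adjusted p = 0.917) and 1.13 in HBG against Control (edgeR adjusted p = 0.815). Without HBG 3, Model 2 and Control 4 these values were 0.16 and 0.90. Single libraries turned the sign, to -1.23 without Model 2 in the first comparison and to -0.49 without HBG 3 in the second, and without Control 4 the values were 1.84 and 2.53.

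Ighm, the heavy chain of IgM in naive B cells and early plasma cells, had 159, 60.8, 293 and 26.1 CPM in HBG and 54.6, 328, 92.5 and 39.3 CPM in Model, against 31.7, 45.2, 33.4 and 100 CPM in Control. HBG 3, Model 2 and Control 4 were again the highest of their groups, and HBG 4 was the lowest of all 12. Its correlation with Cd79a was lower than that of Ighd as a value (r = 0.789, and 0.457 without HBG 3 and Model 2). The log2 fold change was 1.29 ± 0.79 in Model against Control (edgeR adjusted p = 0.549) and 0.07 in HBG against Model (edgeR adjusted p = 1.0). Without HBG 3, Model 2 and Control 4 these values were 0.74 and 0.40, and without Model 2 alone the first was 0.24.

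**Figure D2:**
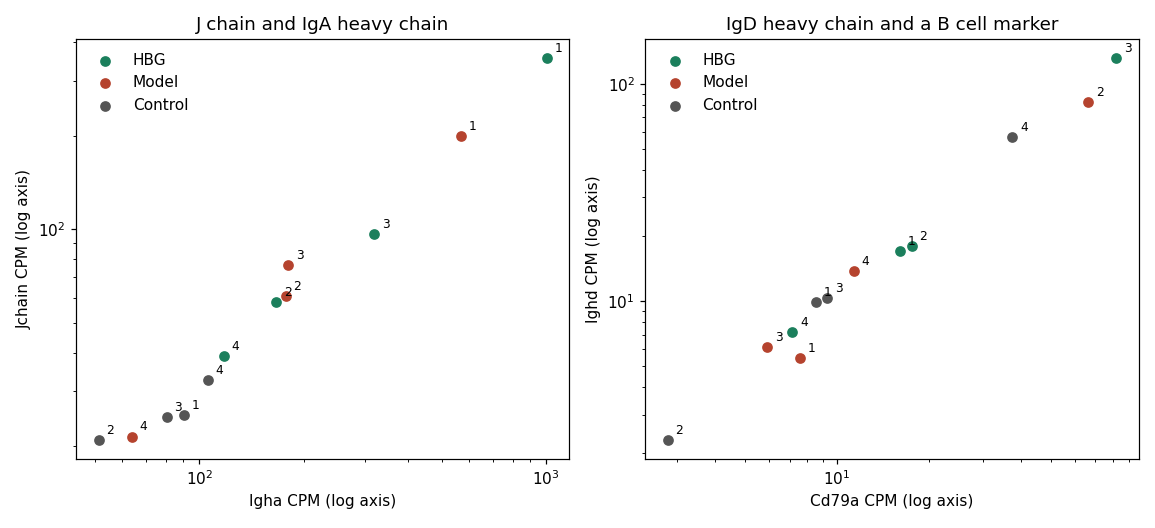
Jchain against Igha and Ighd against Cd79a in CPM (log axes), with 1 numbered point per library in HBG, Model and Control. HBG 1 and Model 1 lay at the top of the first panel, and HBG 3, Model 2 and Control 4 at the top of the second.

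Igkc, the constant region of the kappa light chain, is used by antibodies of every class. It had 856.5, 120, 302 and 77.8 CPM in HBG and 417, 248, 182 and 85.1 CPM in Model, against 67.9, 64.4, 84.2 and 120 CPM in Control. HBG 4 and Model 4 lay below the highest Control library and HBG 2 within 1 CPM of it, so the groups overlapped. Its log2 fold change was 1.47 ± 0.67 in Model against Control (edgeR adjusted p = 0.427) and 2.01 ± 0.68 in HBG against Control (edgeR adjusted p = 0.478). The second value was 0.99 without HBG 1. Kappa made up 89.6% ± 2.64 of the kappa and lambda constant counts in HBG, 89.7% ± 3.87 in Model and 89.6% ± 5.17 in Control (SD, n = 4 each).

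Mzb1, the antibody assembly factor, had 17.1, 5.94, 8.73 and 4.15 CPM in HBG and 5.33, 4.69, 4.88 and 3.24 CPM in Model, against 2.69, 2.25, 4.27 and 4.93 CPM in Control. The groups overlapped, and HBG 1 was the highest library. The log2 fold change was 0.36 ± 0.41 in Model against Control (edgeR adjusted p = 0.776), 0.99 ± 0.40 in HBG against Model (edgeR adjusted p = 1.0) and 1.341 ± 0.41 in HBG against Control (edgeR adjusted p = 0.392). The last value was 0.83 without HBG 1.

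Per kilobase of the gene length in the table, the order of mean levels in HBG was Igkc at 637, Igha at 158, Jchain at 98.7, Ighm at 79.3, Ighg2c at 66.3, Ighd at 24.02, Ighg1 at 23.9, Ighg2b at 17.7, Mzb1 at 9.92 and Ighg3 at 2.17 CPM. Igkc and Igha were also the highest of the 10 in Model, at 438 and 97.4 CPM per kilobase, and in Control, at 158 and 32.3. Ighg2c stood at 48.4 CPM per kilobase in Model and 3.97 in Control. In HBG the SD between libraries exceeded the mean for 8 of the 10 genes, all but Ighm and Mzb1, so the order of close neighbours is uncertain. The order also rests on the lengths used, 1214 bases for Ighg2c and 2414 to 2566 for the other IgG genes. The secreted transcripts of these 4 genes are of nearly equal length, at 1076 to 1114 bases, so the lead of Ighg2c over the others is partly set by the lengths.

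The comparison of Model with Control asked how these transcripts differed after bleomycin. None of the 10 genes passed the edgeR test at an adjusted p of 0.05, against 0.348% of the 17827 tested genes. Each had a higher mean in Model (51.5% of all tested genes did), with a median log2 fold change of 1.69, beside 0.01 over all tested genes. Of the 10, 5 were higher with an unadjusted edgeR p under 0.05 (6.37% of all tested). Ighg2b and Ighg2c were the 2 of 10 whose 4 Model libraries all lay above the 4 Control libraries, a separation found in 4.2% of tested genes. DESeq2 called 1 of the 10 higher, Ighg2c (adjusted p = 0.0137, 1.06% of genes called higher by DESeq2), and limma-voom with quality weights called it too (adjusted p = 0.0157, in a fit that called 3.48% of tested genes higher). Without Control 4, Model 2 and HBG 3 its log2 fold change was 4.08 and its edgeR adjusted p was 0.33.

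The comparison of HBG with Model asked how the granules altered the response to bleomycin. No gene of the 10 passed (edgeR adjusted p = 1.0 for each), and none of the 17827 tested genes did (0.0%). At an unadjusted edgeR p under 0.05 the number was 2, Ighg1 and Mzb1 (0.735% of all tested were higher at that level), and DESeq2 called 0 (0.00583% of its genes were called higher). No gene had all 4 HBG libraries above all 4 Model libraries (0.454% of tested genes). All 10 means were higher in HBG (50.1% of all tested genes), with a median log2 fold change of 0.69. Without HBG 1 the log2 fold change turned negative for Ighg2c, at -1.69, Igkc, at -0.48, Jchain, at -0.48, Ighg3, at -0.45, Igha, at -0.30, and Ighm, at -0.02. The mean of Igha without that library was 201 ± 105 CPM in the 3 other HBG libraries, against 247 ± 220 CPM in the 4 Model libraries (SD).

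The comparison of HBG with Control shares its libraries with both others. Again 0 of 10 passed edgeR (0.151% of all tested genes), while 8 were higher with an unadjusted edgeR p under 0.05 (3.59% of all tested). All 10 means were higher in HBG (51.0% of all tested genes), with a median log2 fold change of 2.35. Igha, Ighg2b, Ighg2c and Jchain were the 4 of 10 with every HBG library above every Control library, against 2.41% of tested genes. DESeq2 called 4 higher (0.261% of its genes), Ighg1 (adjusted p = 0.000922), Ighg2c (adjusted p = 0.00471), Ighg2b (adjusted p = 0.00671) and Ighg3 (adjusted p = 0.0145). HBG 1 stood far above the other HBG libraries for all 4, at 218.5, 267.4, 133.8 and 16.31 CPM. The others had at most 13.99, 36.34, 28.32 and 2.31 CPM in that order of genes. Without HBG 1 the edgeR log2 fold changes were 2.91, 1.92, 2.13 and 1.63, and DESeq2 was not run without it. Limma-voom with quality weights called 0 of the 10 in this comparison (0.0505% of tested genes were called higher), with adjusted p-values of 0.621 for Ighg1, 0.579 for Ighg2c, 0.459 for Ighg2b and 0.478 for Ighg3. Its log2 fold changes for these 4 were 2.91, 1.68, 1.96 and 1.85.

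**Figure D3:**
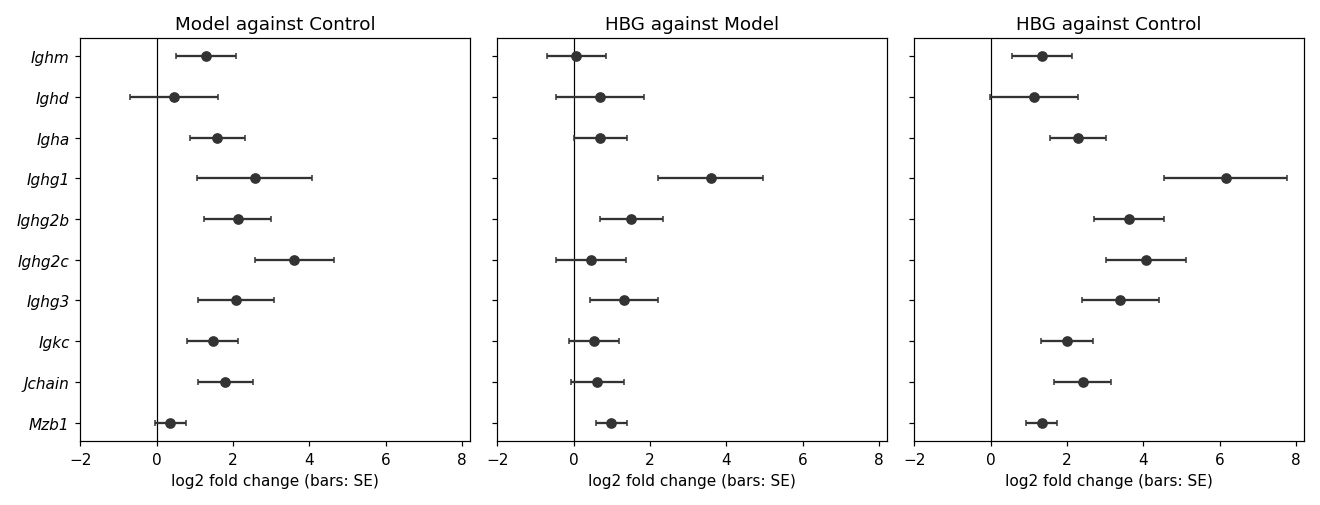
Log2 fold changes of the 10 genes (points, with SE as bars) in the 3 comparisons, from edgeR fitted to all 12 libraries. The values for Ighg2c were 3.61, 0.46 and 4.06, and no gene passed an adjusted p of 0.05.

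Isotype shares describe the mix of heavy chains apart from its total. They are percentages of the estimated counts of the 7 heavy chain constant genes, which numbered 38969, 5273, 17259 and 3017 in HBG 1 to 4 and 14212, 12540, 8411 and 3327 in Model 1 to 4, against 2634, 2083, 3463 and 5615 in Control 1 to 4. The 95% Wilson intervals of these shares, which cover counting error only, were at most 4.29 points wide. Differences between libraries were often far wider than that.

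IgG took 35.0, 13.8, 8.67 and 9.55% in HBG and 17.1, 7.04, 26.6 and 30.6% in Model, against 6.99, 5.14, 7.54 and 4.97% in Control. All 4 HBG libraries and 3 of the 4 Model libraries were above every Control library, and Model 2 was not. The mean was 16.8% ± 12.4 in HBG, 20.4% ± 10.53 in Model and 6.16% ± 1.30 in Control (SD, n = 4 each). Model exceeded Control by 14.2 points (exact permutation p = 0.0571, adjusted over 9 share tests p = 0.257). HBG exceeded Control by 10.6 points (exact permutation p = 0.0286, the smallest that 4 against 4 libraries allow, adjusted p = 0.257), and HBG minus Model was -3.58 points (exact permutation p = 0.714). Without HBG 3, Model 2 and Control 4 the mean was 19.5% ± 13.6 in HBG, 24.8% ± 6.95 in Model and 6.55% ± 1.26 in Control (SD, n = 3 each). Without HBG 1, HBG exceeded Control by 4.53 points, and HBG minus Model was -9.67 points. Other single libraries also moved the difference from Model by over 1.5 times, to -0.88 points without HBG 3, -1.17 without HBG 4, -8.02 without Model 2, -1.49 without Model 3 and -0.16 without Model 4.

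On counts not divided by length, IgA was the largest class in 11 of the 12 libraries, all but Model 2, where IgM was. It took 55.3, 58.5, 39.2 and 70.5% in HBG and 75.0, 28.0, 47.4 and 38.0% in Model, against 63.7, 49.3, 59.95 and 38.3% in Control. The groups overlapped over nearly their whole range, with exact permutation p-values of 0.6 for Model against Control, 0.457 for HBG against Model and 0.714 for HBG against Control. IgM took 8.74, 21.35, 35.99 and 15.6% in HBG and 7.21, 51.9, 24.3 and 23.3% in Model, against 22.4, 43.4, 24.8 and 36.2% in Control. It was below 10% in the 2 libraries of highest Igha, HBG 1 and Model 1, and the largest difference, -11.3 points in HBG against Control, had an exact permutation p of 0.143. The mean IgM share was 20.4% in HBG, 26.7% in Model and 31.7% in Control. Without HBG 3, Model 2 and Control 4 it was 15.2, 18.3 and 30.2% in that order. IgD took 0.94, 6.28, 16.1 and 4.31% in HBG and 0.72, 13.1, 1.62 and 8.12% in Model, against 6.95, 2.21, 7.68 and 20.5% in Control, highest in HBG 3, Model 2 and Control 4.

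Gene lengths in the table differ, at 1214 bases for Ighg2c and 2414 to 2566 for the other IgG genes, although the secreted transcripts of all 4 are 1076 to 1114 bases long in GENCODE M21. With counts divided by the lengths of the table, the IgG share was 20.2% ± 14.9 in HBG, 27.9% ± 14.8 in Model and 7.82% ± 1.63 in Control (SD, n = 4 each). The IgA share on that scale was 46.9% ± 12.9 in HBG, 36.6% ± 19.2 in Model and 43.3% ± 11.2 in Control. IgA was then the largest class in 6 of the 12 libraries, IgM in 4 (HBG 3, Model 2, Control 2 and Control 4) and IgG in 2 (Model 3 and Model 4).

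Within IgG, the subclass mix varied between libraries of a group. Ighg2c made up 42.0, 27.3, 51.5 and 47.2% of IgG counts in HBG and 69.97, 44.9, 80.01 and 84.1% in Model, against 41.9, 68.2, 47.1 and 48.75% in Control. Model 1, Model 3 and Model 4 were above every other library, Model 2 was not, and the difference between groups was not tested. Ighg1 made up 34.4, 35.5, 5.15 and 5.90% in HBG and 5.76, 3.51, 9.51 and 1.77% in Model, against 4.35, 5.61, 11.5 and 9.68% in Control. HBG 1 and HBG 2 stood above the other 10 libraries. Ighg2b made up 21.1, 33.0, 40.1 and 43.1% in HBG and 23.6, 41.6, 9.55 and 10.1% in Model, against 48.4, 23.4, 38.3 and 34.4% in Control. These percentages rest on 288 to 13651 IgG counts in HBG, 883 to 2431 in Model and only 107 to 279 in Control.

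**Figure D4:**
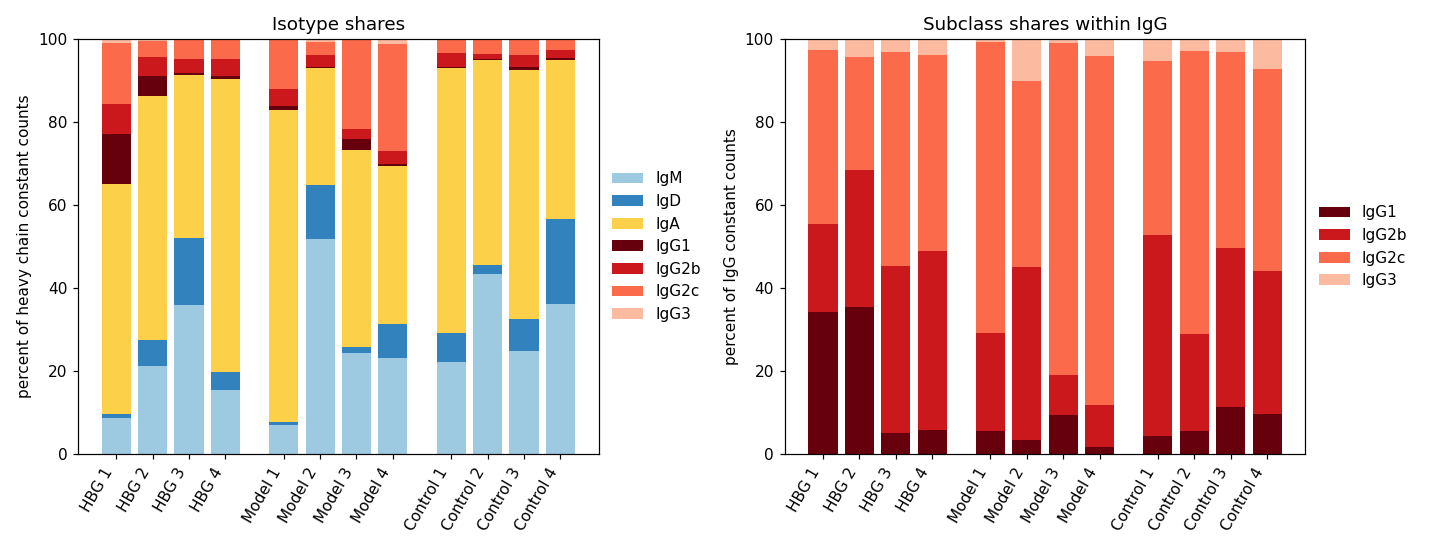
Percent of heavy chain constant counts by isotype (first panel) and percent of IgG constant counts by subclass (second panel), with 1 stacked bar per library in HBG, Model and Control. IgG shares were 4.97 to 7.54% in Control and reached 35.0% in HBG 1 and 30.6% in Model 4.

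Other genes of the pathway were read from lists of textbook genes. Beside the counts of higher means given for these lists stand the shares over all tested genes. These were 51.5% in Model against Control, 50.1% in HBG against Model and 51.0% in HBG against Control. Genes of a list share libraries and move together, so the counts are not separate observations. No tested gene of the lists passed edgeR in any comparison. The lambda constant genes were low beside kappa. Iglc2 averaged 16.15 ± 11.4 CPM in HBG, 12.75 ± 4.798 in Model and 6.54 ± 6.78 in Control, and Iglc1 16.7 ± 24.8, 4.67 ± 2.16 and 2.10 ± 0.68 CPM in the same order of groups. Iglc3 averaged 4.06 ± 3.42 CPM in HBG, 5.07 ± 5.05 in Model and 2.66 ± 2.71 in Control (SD, n = 4 each).

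Of 23 tested genes of plasma cell identity and secretion, 13 had higher means in Model than in Control, 12 in HBG than in Model and 14 in HBG than in Control, with median log2 fold changes of 0.05, 0.03 and 0.03. Their summed level was 2096 to 2465 CPM in HBG, 2158 to 2794 in Model and 2090 to 2608 in Control, so the groups overlapped. The 3 most abundant were Hsp90b1, an endoplasmic reticulum chaperone, with 782 ± 66.2 CPM in HBG, 966 ± 177 in Model and 935 ± 162 in Control, Sdc1, the heparan sulphate proteoglycan CD138, and Herpud1, a factor of protein degradation. All 3 are also expressed by other lung cells. Tnfrsf17, the survival receptor BCMA and a more restricted plasma cell gene that was chosen after its values were seen, was too low to be tested, at 0.25 to 1.07 CPM in the 8 bleomycin libraries and 0.16 to 0.49 CPM in the Control libraries. Slamf7, Pou2af1 and Derl3, chosen in the same way, had log2 fold changes of 1.20, 1.06 and 0.50 in Model against Control. In HBG against Control these were 1.255, 1.425 and 0.83. Prdm1 and Xbp1, also chosen so, had -0.27 and -0.04 in Model against Control and 0.03 and -0.15 in HBG against Control. Of the 23 genes, 10 had lower means in Model than in Control and 9 in HBG than in Control.

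Of 20 B cell identity genes, 17 had higher means in Model than in Control, 19 in HBG than in Model and 19 in HBG than in Control, with median log2 fold changes of 0.48, 0.51 and 1.03. The means lean on 1 library per group, since the 20 genes summed to 826 CPM in HBG 3, 604 in Model 2 and 411 in Control 4. Without these 3 libraries the sums overlapped, at 145 to 236 CPM in HBG, 140 to 185 in Model and 99.2 to 155 in Control. Cd79a averaged 30.6 ± 34.4 CPM in HBG, 22.8 ± 29.1 in Model and 14.5 ± 15.6 in Control, with 81.7 CPM in HBG 3, 66.3 in Model 2 and 37.4 in Control 4. Ralgps2 and Ebf1, a B cell transcription factor, were the other abundant genes. The 12 T cell genes summed to 201 CPM in HBG 3, 205.5 in Model 2 and 88.2 in Control 4, against 19.8 to 85.7 CPM in the other 9 libraries. Their part in the values of Ighm and Ighd was not tested.

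Of 12 tested genes of class switching and germinal centres, 9 had higher means in Model than in Control, 9 in HBG than in Model and 11 in HBG than in Control. S1pr2, a receptor that holds B cells in germinal centres, averaged 37.2 ± 6.73 CPM in HBG, 37.8 ± 11.3 in Model and 23.9 ± 4.49 in Control, with a log2 fold change of 0.67 ± 0.22 in Model against Control (edgeR adjusted p = 0.279). Bcl6 and Fas differed less, with log2 fold changes of -0.15 and 0.17 there.

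Of 18 genes for recruitment of B cells and survival of plasma cells, 14 had higher means in Model than in Control, 11 in HBG than in Model and 14 in HBG than in Control. Cxcl12 averaged 177 ± 48.8 CPM in HBG, 199 ± 80.1 in Model and 150 ± 39.0 in Control, and Ccl21a 63.9 ± 25.1, 80.8 ± 25.0 and 47.9 ± 14.4 CPM. Cxcl13, the chemokine of B cell follicles, was chosen after its values were seen. It had 18.6 CPM in HBG 1, the library highest in IgA and IgG, and 0.66 to 4.10 CPM in the other 11.

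Receptors and carriers of antibody were measured at 9 tested genes, of which 7 had higher means in Model than in Control, 5 in HBG than in Model and 8 in HBG than in Control. Pigr, the carrier of IgA into the airway, averaged 138 ± 43.4 CPM in HBG and 95.9 ± 35.95 in Model, against 164 ± 25.4 in Control. The log2 fold change was -0.78 ± 0.28 in Model against Control (edgeR adjusted p = 0.31), opposite in sign to that of Igha. The 5 markers of club cells, a secretory cell type of the airway epithelium, summed to 21649 to 57679 CPM in HBG and 21469 to 36735 CPM in Model, against 52018 to 69789 CPM in Control. All 5 had lower means in Model than in Control, with a median log2 fold change of -0.86, and their part in the level of Pigr was not tested. Fcgr3, an IgG receptor of macrophages, averaged 42.8 ± 12.3 CPM in HBG, 60.1 ± 27.8 in Model and 25.0 ± 5.61 in Control, with a log2 fold change of 1.27 ± 0.34 in Model against Control (edgeR adjusted p = 0.185). Fcgrt, the recycling receptor of IgG, averaged 61.7 ± 8.16, 57.3 ± 5.76 and 55.3 ± 3.66 CPM in HBG, Model and Control. Of 12 macrophage markers, 11 also had higher means in Model than in Control. They summed to 6340 to 7541 CPM in HBG, 4330 to 12266 in Model and 4493 to 6810 in Control, and their part in the level of Fcgr3 was not tested.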

How the data were processed

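The deposited table holds estimated counts per gene for 12 libraries. No header names the authors' unit, which was inferred since 10.04 to 15.1% of each library's entries carried decimals. DESeq2 1.34.0, HTSeq, featureCounts 2.0.1, HISAT2, STAR 2.7.9a, fastp, cutadapt, Trimmomatic 0.39 and FastQC 0.11.9 stand without roles in the submitters' processing notes, with the builds GRCm39 and mm10. The tool behind the counts and its annotation are not given in the sources used here.

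Estimated counts were first rounded to integers. A count of 0 allows up to 3 counts, 0.11 to 0.17 CPM. Genes kept by filterByExpr were fitted with edgeR 4.0.16 (R 4.3.3, limma 3.58.1): TMM factors, quasi-likelihood F test, all 12 libraries, group as the only term, Benjamini-Hochberg adjustment over 17827 genes, threshold 0.05. The SE of an edgeR log2 fold change is its absolute value divided by the square root of its F statistic. CPM use TMM factors. Correlations use log2 CPM with a prior count of 2. Shares were compared by two-sided exact permutation of libraries. Alternatives were DESeq2 1.42.0, limma-voom, other factors and filters, the replicate number as a block, and libraries left out. The tests were checked on simulated counts. No 2 libraries of the same group agreed within sampling noise.

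Members and lists were chosen with earlier results of these data known. The genes named are the 10 members, list genes past the threshold, the 3 most abundant genes of 6 lists, and the 5 ranked genes of highest r with Ighm, Jchain and Ighg2b. That ranking left out the members, names starting Igh, Igk or Igl, and predicted or clone names. Cdkn1a, Tnfrsf17, Slamf7, Pou2af1, Derl3, Prdm1, Xbp1, Cxcl13, Ighe, Gm50318 and Spata24 were chosen after their values were seen. Hinge and shared sequences were read from GENCODE M21 on GRCm38.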

Additional observations from a re-analysis of the deposited data

Results flagged for a closer look

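Of 54 sets of 4 values examined, 8 held a library far from the others of its group. The cutoff used would pass about 1 in 20 sets of independent, normally distributed values. These sets share libraries and correlated genes, so their number cannot be compared with that rate. In HBG, replicate 1 stood apart for Ighg1 (218.5 CPM), Ighg2b (133.8 CPM), Ighg2c (267.4 CPM) and Ighg3 (16.31 CPM), and for the share of IgG2c among heavy chain counts (14.73%). The same library had 1004 CPM of Igha, 356 CPM of Jchain and 18.6 CPM of Cxcl13. Ighd stood apart in HBG 3 (131.4 CPM), Model 2 (82.65 CPM) and Control 4 (56.74 CPM), the 3 libraries with the highest sums of B cell genes.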

How the results depend on the processing

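Of the 10 genes, Ighg2c passed in Model against Control under DESeq2, under limma-voom with sample quality weights, in the fit of the 2 groups alone and without HBG replicate 1, which gave 1 call each, where these fits called 422, 1079, 70 and 65 of all genes in that order, so leaving out single libraries gave 0 to 1 calls. DESeq2 called 4 in HBG against Control. Limma-voom reversed the log2 fold change of Ighd in Model against Control (-0.46). In HBG against Model it reversed Ighm (-0.66), Igha (-0.29), Ighg1 (-0.19), Ighg2c (-2.27), Igkc (-0.73) and Jchain (-0.47). The replicate numbers did not pair the libraries, since correlations of same-numbered libraries ran from -0.36 to 0.48. The fit with the replicate block called 0 of the 10 genes in each comparison, and of all genes 25 in Model against Control, 0 in HBG against Model and 17 in HBG against Control, where the fit without it called 62, 0 and 27. It reversed Ighg2c in HBG against Model (-0.43).

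Leaving out single libraries gave ranges that cross 0. In HBG against Model these were -0.65 to 1.12 for Ighm, -0.30 to 1.501 for Igha, -1.69 to 0.83 for Ighg2c, -0.48 to 0.97 for Igkc, -0.48 to 1.36 for Jchain, -0.45 to 1.996 for Ighg3 and -0.94 to 2.37 for Ighd. Ighd ranged from -1.23 to 1.84 in Model against Control and from -0.49 to 2.53 in HBG against Control. The difference in IgA share ranged from -1.80 to 8.65 points in HBG against Control and from -15.0 to 0.64 in Model against Control. For the IgM share it ranged from -13.4 to 1.45 points in Model against Control and from -12.7 to 2.15 in HBG against Model. The cause of these shifts was not tested. Over all genes, DESeq2 called 3 in HBG against Model and 198 in HBG against Control, and limma-voom 0 and 101. Ighg2a was not in the table used here.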

Other observations

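Likeness of log2 CPM over the 12 libraries was ranked among 14123 genes. The 10 members, names starting Igh, Igk or Igl, and predicted or clone names were left out of the ranking. The ranked genes most like Ighm were Tec (r = 0.953), Dnmt3a (r = 0.949), Plk4 (r = 0.945), Tlr9 (r = 0.941) and Flt3 (r = 0.941). Without HBG 3 and Model 2, r was 0.869 to 0.935 for these 5. Flt3, a receptor of lymphoid and dendritic cell progenitors, had 12.7 CPM in HBG 3 and 10.49 CPM in Model 2, against 1.09 to 7.94 CPM in the other 10 libraries.

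The ranked genes most like Jchain were Glb1, a lysosomal galactosidase (r = 0.953), Ccl8, a monocyte chemokine (r = 0.944), Tnfrsf9 (r = 0.940), the interferon-induced Oas1a (r = 0.938) and H2-M2 (r = 0.932). Igha (r = 0.991) and Igkc (r = 0.96), members left out of the ranking, were closer to Jchain. Without HBG 1 and Model 1, r with Jchain was 0.771 (H2-M2) to 0.966 (Glb1) for the 5 ranked genes. Ccl8 had 12.1 CPM in HBG 1 and 8.85 CPM in Model 1, the 2 libraries of highest Jchain, and 1.24 to 5.38 CPM in the other 10. The ranked genes most like Ighg2b were Oas1a (r = 0.942), the class I gene H2-D1 (r = 0.939), Cog7 (r = 0.936), Oas3 (r = 0.923) and the class I gene H2-K1 (r = 0.918). Igha, a member left out of the ranking, had r = 0.959 with Ighg2b. Without HBG 1 and Control 2, r with Ighg2b was 0.738 (H2-K1) to 0.92 (Cog7) for the 5 ranked genes. H2-K1 had 1943, 1259, 1085 and 1171 CPM in HBG 1 to 4 and 1295, 1106, 1015 and 927 CPM in Model 1 to 4, against 949, 744, 969 and 882 CPM in Control 1 to 4. These correlations share library, scaling and depth, and genes were picked as the highest of many.

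Mzb1 overlaps 2 other genes, and its deposited value was not whole in 6 libraries. Gm50318, 1 of them, had at most 18.9 counts in any library, in HBG 1, where Mzb1 had 366. Spata24, the other, had 94 to 303 counts per library, against 45.3 to 366 for Mzb1. In Control 1 the values were 161 for Spata24 and 50 for Mzb1, and in HBG 3 they were 94 and 185. How the division of reads between these genes bears on the level of Mzb1 was not tested. Ighe, the heavy chain of IgE, which like Gm50318 and Spata24 was chosen after its values were seen, had at most 5 counts in any library.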
